A study of Mus musculus with 4 samples.

Results

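Collagen chain genes, read as a group across the 4 arrays of this series, were the genes whose array name has the form Col, a number, a and a number, such as *Col1a1*. The array carried 44 of them on 69 probes, out of 22368 genes that could be named. The brightest probe by mean log2 signal stood for each gene, and 39 genes were well above background on at least 1 array by the test of Feature Extraction, the scanner software. Of these, 24 were well above background on all 4 arrays and 15 on some of them. The other 5, *Col11a1*, *Col13a1*, *Col19a1*, *Col25a1* and *Col28a1*, were not well above background on any array by that probe, although 2 dimmer probes of *Col25a1* each passed on 1 array. The brightest probes of *Col4a4*, *Col6a5*, *Col6a6*, *Col9a1* and *Col12a1* passed while their other probes did not.

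Each array held RNA pooled from the colons of male mice of 1 group, all 42 weeks old and of strain background B6.129 (n3), that is at backcross generation 3. The groups were *Pla2g3*+/+ (WT) with saline as vehicle, *Pla2g3*-/- (KO) with vehicle, WT with azoxymethane (AOM), and KO with AOM. AOM is a carcinogen that induces colon tumors in mice, and it was injected weekly for 6 weeks at a dose of 10 mg/kg, with the colon removed 28 weeks after the injections ended. *Pla2g3* encodes a secreted phospholipase A2, and the null allele was not limited to a cell type. A pool held 3 to 5 mice. The labels name colon as the tissue of every group but describe both AOM samples as colorectal cancer tissue, and how much of each pool was tumor is not given. With 1 array per group, no spread between mice is known, no test was possible, and every fold change given here is a comparison of 2 pools.

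Collagens are the main structural proteins of connective tissue. A collagen molecule is a triple helix of 3 chains, each built from repeats of glycine followed by 2 other residues, and the chains are hydroxylated and glycosylated in the endoplasmic reticulum, trimmed by proteases and crosslinked by lysyl oxidases outside the cell. Fibrillar collagens such as types I, III and V form the fibers of the submucosa, type IV forms the network of basement membranes beneath epithelium and around smooth muscle and vessels, type VI forms beaded filaments around cells, and FACIT collagens sit on the surface of fibrils. In the colon most of these chains are made by fibroblasts, smooth muscle cells and endothelial cells, and the stroma of colon tumors is known for its dense collagen.

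In the vehicle groups no collagen gene differed by more than 2-fold between the genotypes. After AOM, 19 of 38 collagen genes with a ratio (50%) were over 2-fold lower in the KO pool than in the WT pool, where 12.9% of all genes were. Among them were the type I and V chains, *Col4a1*, *Col4a2* and the endostatin precursor *Col18a1*. Another 6 (15.8%) were over 2-fold higher, near the 15.1% of all genes. Among them were *Col14a1*, the hemidesmosome collagen *Col17a1* and, by 1 of its 2 probes, *Col4a6*. The WT AOM array gave the highest signal of the 4 for 24 of the 39 genes, and for 17 of the 24 that were above background on every array, of which the KO AOM array was highest for 5. The first count includes genes kept through the WT AOM array only, such as *Col10a1*. How many of all genes were highest on that array was not counted, so whether these counts exceed their share is not known. Values below are scaled signals, in units of the signal at the 75th percentile of the same array, and they are given in the order WT vehicle, KO vehicle, WT AOM and KO AOM unless stated otherwise. A scaled signal can be set beside the same probe on another array but not beside another probe. The sum of a list is therefore compared between arrays only, and it is weighted toward the brightest probes of the list. Ratios are log2 differences, so that 1 is a 2-fold change. Where a probe was not well above background on 1 of 2 arrays, the dim value was raised to the array's lowest signal that still counted as well above background (its own signal was kept if higher), and the change is written as "at least".

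**Figure D1:**
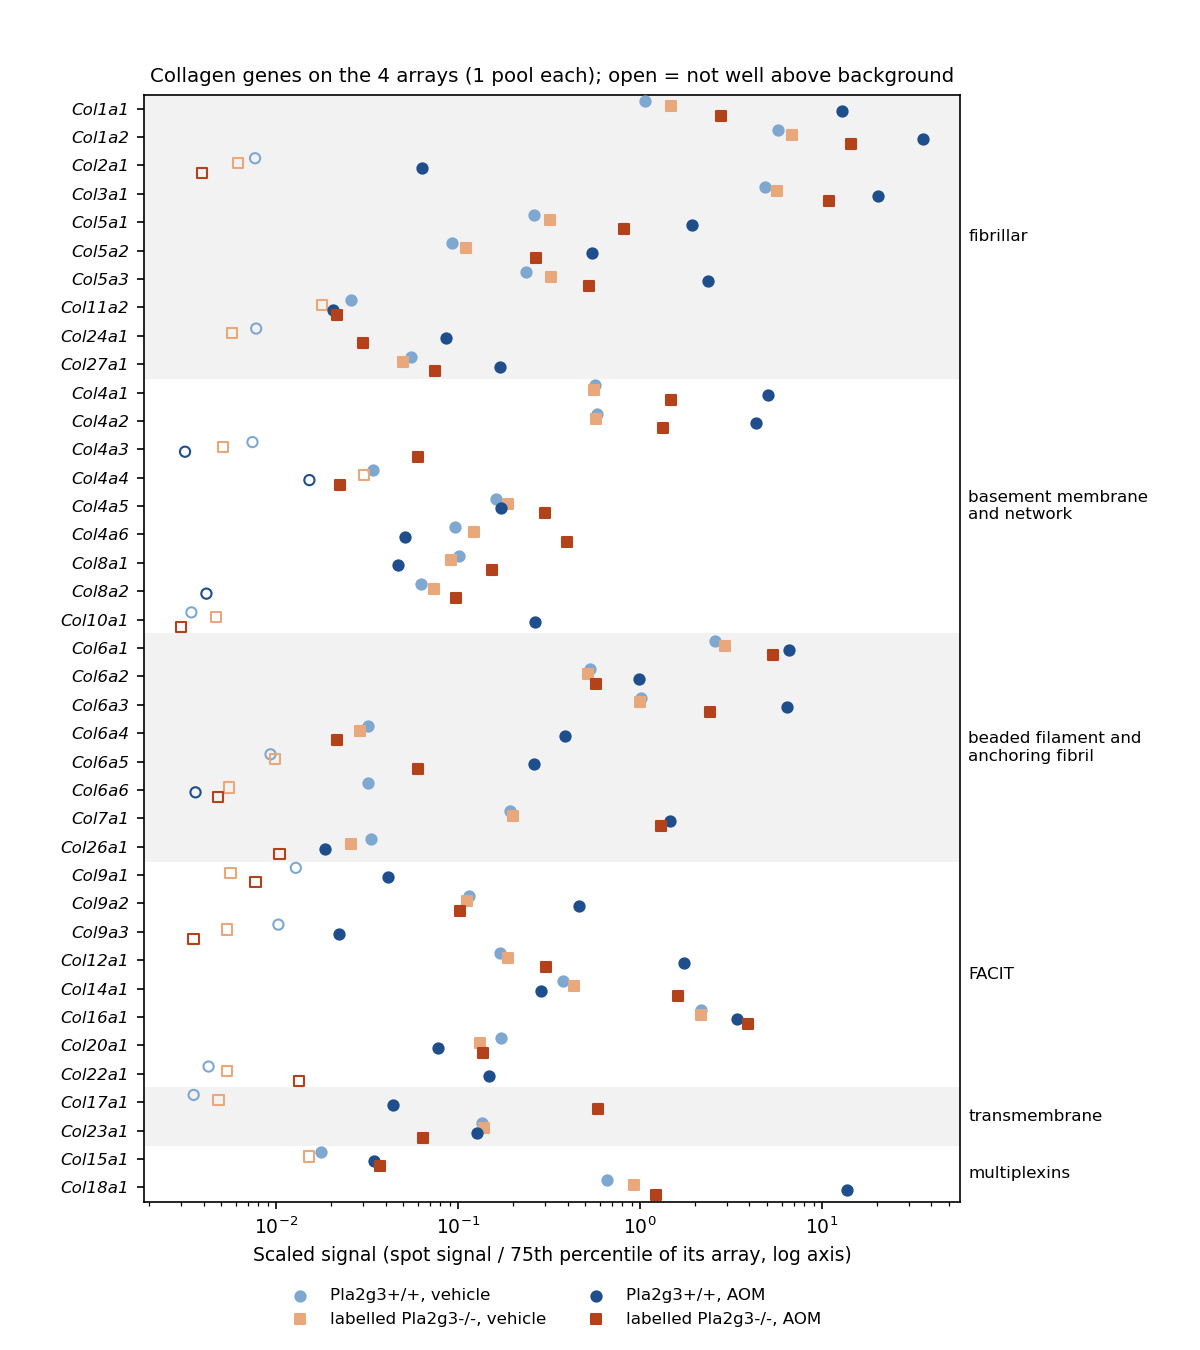
Scaled signal of the 39 collagen genes (rows, grouped by class) on the 4 arrays, on a log axis, with 1 point per array, filled where the probe was well above background and open where it was not. For *Col18a1* the WT AOM point at 13.8 lies far to the right of the others, and for *Col4a6* and *Col14a1* the KO AOM point is the highest.

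*Pla2g3*, the targeted gene, went against the genotype labels. Its scaled signals were 0.531, 0.656, 0.232 and 1.40, so that the pool labelled *Pla2g3*-/- was higher by 0.30 on the log2 scale with vehicle and by 2.59 after AOM. The sources used here do not say which part of the gene was deleted, so whether this probe can report the deletion is not known. All directions below follow the labels, and KO stands for the library labelled *Pla2g3*-/-. Per array, 64.8% to 69.4% of spots passed the background test and none was saturated. All 10 markers of colon epithelium, such as *Krt8*, were well above background on every array. The 10 smooth muscle markers summed to a scaled signal of 516, 541, 31.2 and 497, so that the WT AOM pool had the lowest signal, with all 10 over 2-fold below the KO AOM pool. *Tagln*, one of the brightest, read 194, 202, 11.6 and 158. The 12 Wnt target genes of colon tumors summed to 8.88, 9.03, 100.1 and 9.02, with all 12 over 2-fold higher in the WT AOM pool than in the KO AOM pool. Both sums thus differed between the 2 AOM pools. How much of each tissue went into a pool is not given, and its part in the collagen values was not tested. In pooled tissue, fewer cells of a type and less RNA per cell cannot be told apart.

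With vehicle, 29 of the 39 collagen genes had a KO/WT ratio. None was over 2-fold higher, where 1.92% of 16391 genes were, and none was over 2-fold lower, where 1.32% were. The median log2 ratio was 0.04 for the collagen genes and −0.02 for all genes. The ratios of the 26 collagen genes that passed on both arrays ran from −0.38 for *Col20a1* to 0.50 for *Col18a1*, with an SD of 0.23, against an SD of 0.36 over all genes measured on both arrays. The error that Feature Extraction attaches to a spot gave 0.20 to 0.40 on the log2 scale for such a ratio, which covers the array only and not the mice. On the same arrays all 12 pancreatic acinar cell markers were over 2-fold higher in the KO vehicle pool, with summed scaled signals of 0.498 and 47.9 in the vehicle pools.

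After AOM, 38 collagen genes had a KO/WT ratio. Of these 19 (50%) were over 2-fold lower in KO, against a background of 12.9% of 17194 genes, and 6 (15.8%) were over 2-fold higher, against 15.1%. The share of collagen genes that were lower thus stood above that of all genes, and the share that were higher was near it. The median log2 ratio was −1.01 for collagen genes and 0.03 for all genes. Members that were above background on the WT AOM array only had to differ, so the same count was made over genes well above background on all 4 arrays. There, 13 of 24 collagen genes were over 2-fold lower, where 10.7% of 14788 genes were, and 3 were over 2-fold higher, where 13.4% were. With normexp background correction and quantile normalization, 8 of the 25 genes were no longer past 2-fold, namely *Col2a1*, *Col5a2*, *Col9a1*, *Col24a1* and *Col27a1* of the lower and *Col4a3*, *Col8a1* and *Col8a2* of the higher ones, and *Col3a1* was past it at −1.13.

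**Figure D2:**
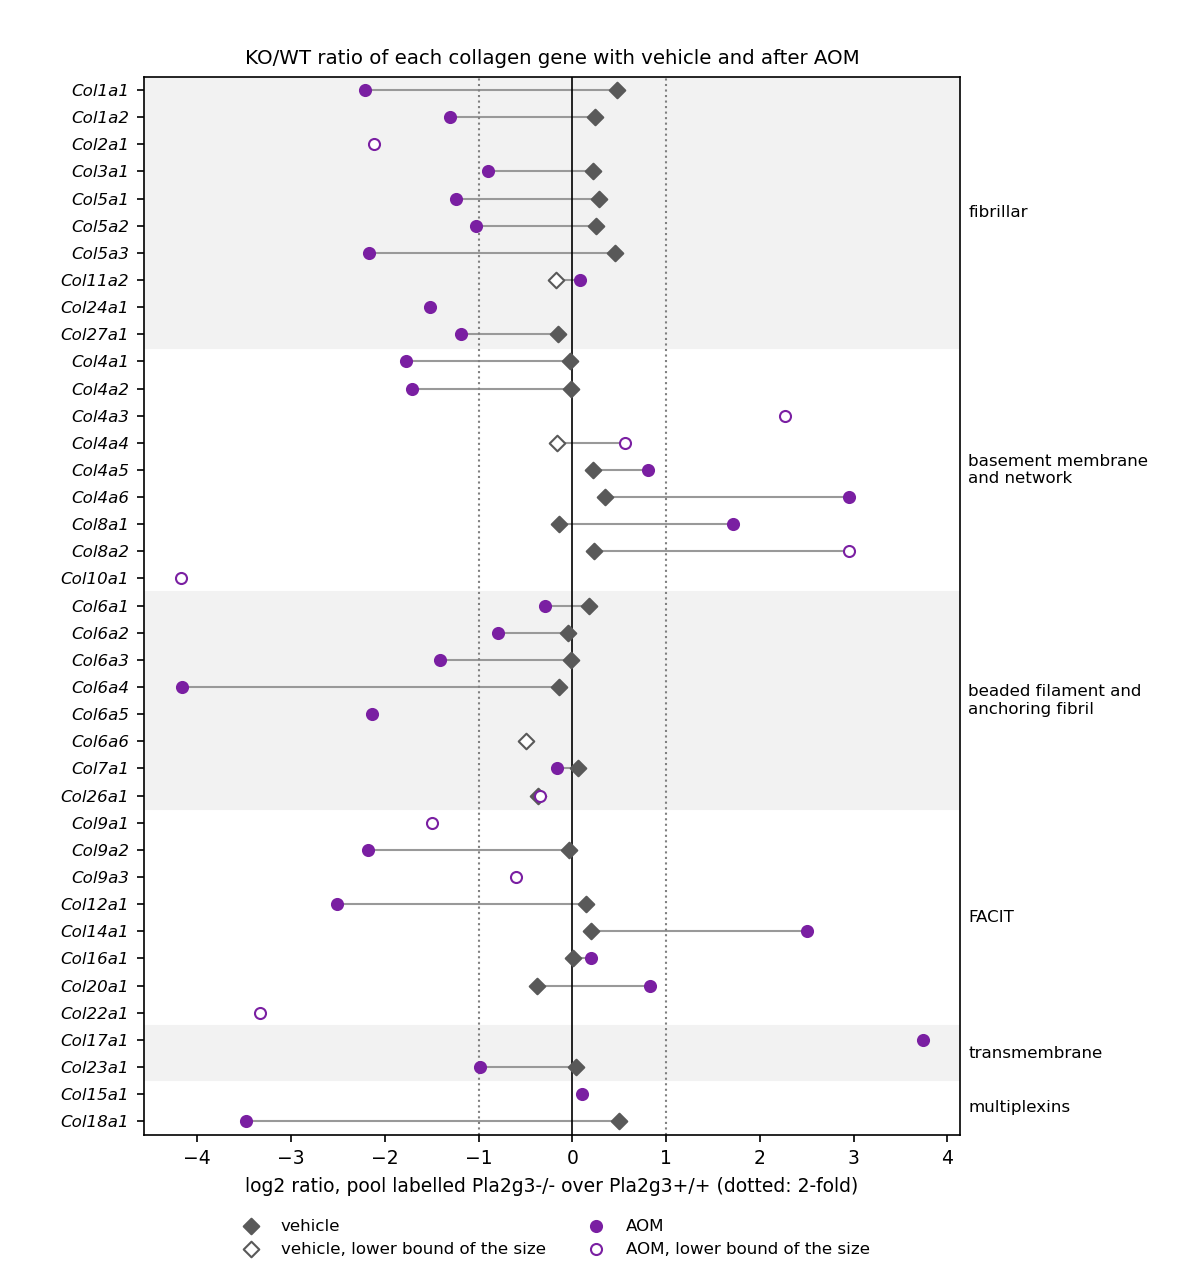
KO/WT log2 ratio of each collagen gene (rows, grouped by class) with vehicle (diamonds) and after AOM (circles), joined by a line where both exist; open symbols are bounds on the size of a change and dotted lines mark 2-fold. All vehicle ratios lie between the dotted lines, and the AOM ratios run from −4.17 for *Col10a1* to 3.74 for *Col17a1*.

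Set directly against each other, the AOM ratio was more than 2-fold below the vehicle ratio in 15 of the 28 collagen genes with both, where 12.8% of 15838 genes showed this, and more than 2-fold above it in 5, where 16.3% did. Those 5 were *Col4a6*, *Col8a1*, *Col8a2*, *Col14a1* and *Col20a1*. The median difference was −1.03 for collagen genes and 0.08 for all genes. This difference of differences was not tested, since each of its 4 terms is 1 array.

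AOM itself was compared with vehicle within each genotype. In the WT pools, 23 of 38 collagen genes (60.5%) were over 2-fold higher after AOM, where 15.1% of 17277 genes were, and 5 were over 2-fold lower, where 22.4% were. The median was 1.78 for collagen genes and −0.17 for all genes. In the KO pools, 12 of 31 (38.7%) were over 2-fold higher, where 9.65% of 16514 genes were, and 1, *Col23a1*, was over 2-fold lower, where 15.1% were. The median there was 0.86 for collagen genes and −0.08 for all genes. Among genes well above background on all 4 arrays, 16 of 24 collagen genes in WT were over 2-fold higher, where 13.4% of genes were, and 2 were lower, where 20.5% were. In KO the same count was 9 higher, where 8.6% of genes were, and 1 lower, where 13.2% were. The WT AOM array enters both the KO/WT comparison after AOM and the AOM/vehicle comparison in WT, so these comparisons are not independent of each other. Without scaling between arrays the all-gene median moved to 0.87 in WT and 0.76 in KO, and of all genes past 2-fold the share that were higher went from 40.3% to 86.3% in WT and from 39.0% to 91.1% in KO. The collagen medians on that scale were 2.80 and 1.65. With normexp background correction and quantile normalization the share that were higher was 50.7% in WT and 50.6% in KO.

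**Figure D3:**
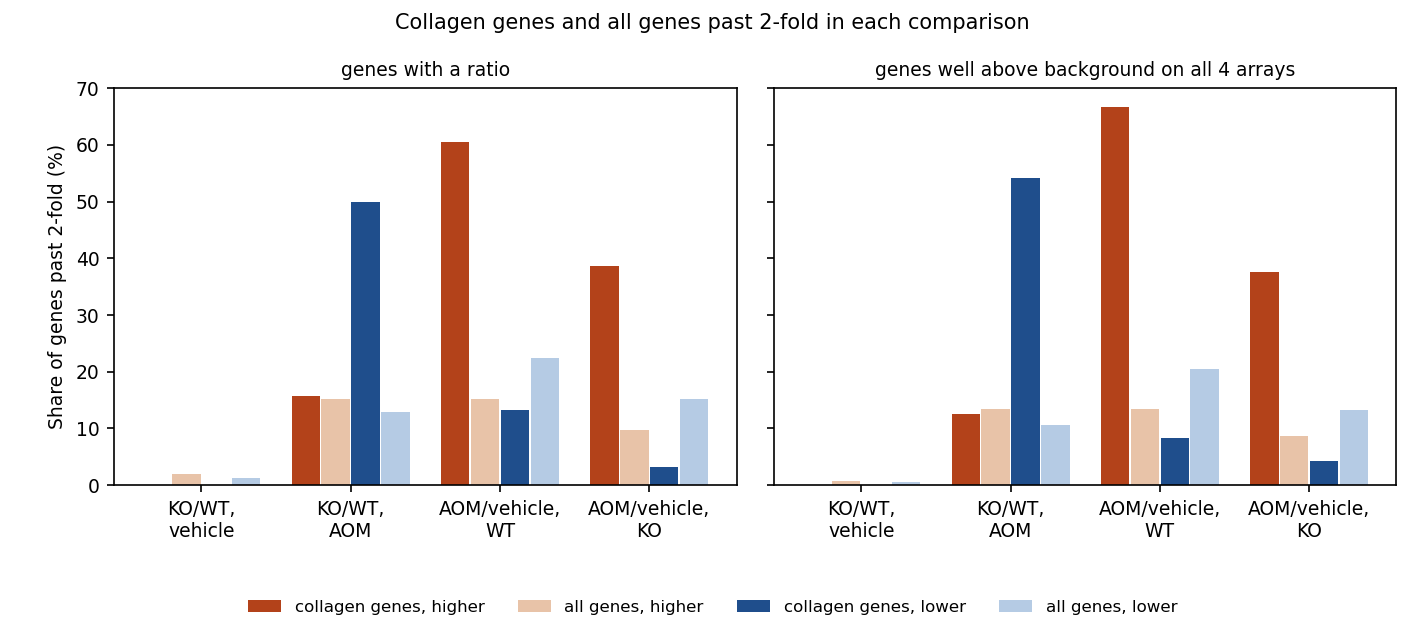
Share of genes past 2-fold (vertical axis, %) in each of the 4 comparisons, higher and lower, for collagen genes and for all genes, over genes with a ratio (left) and over genes well above background on all 4 arrays (right). On the left, the tallest bars are collagen genes higher after AOM in WT, at 60.5%, and lower in KO than in WT after AOM, at 50%.

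**Figure D4:**
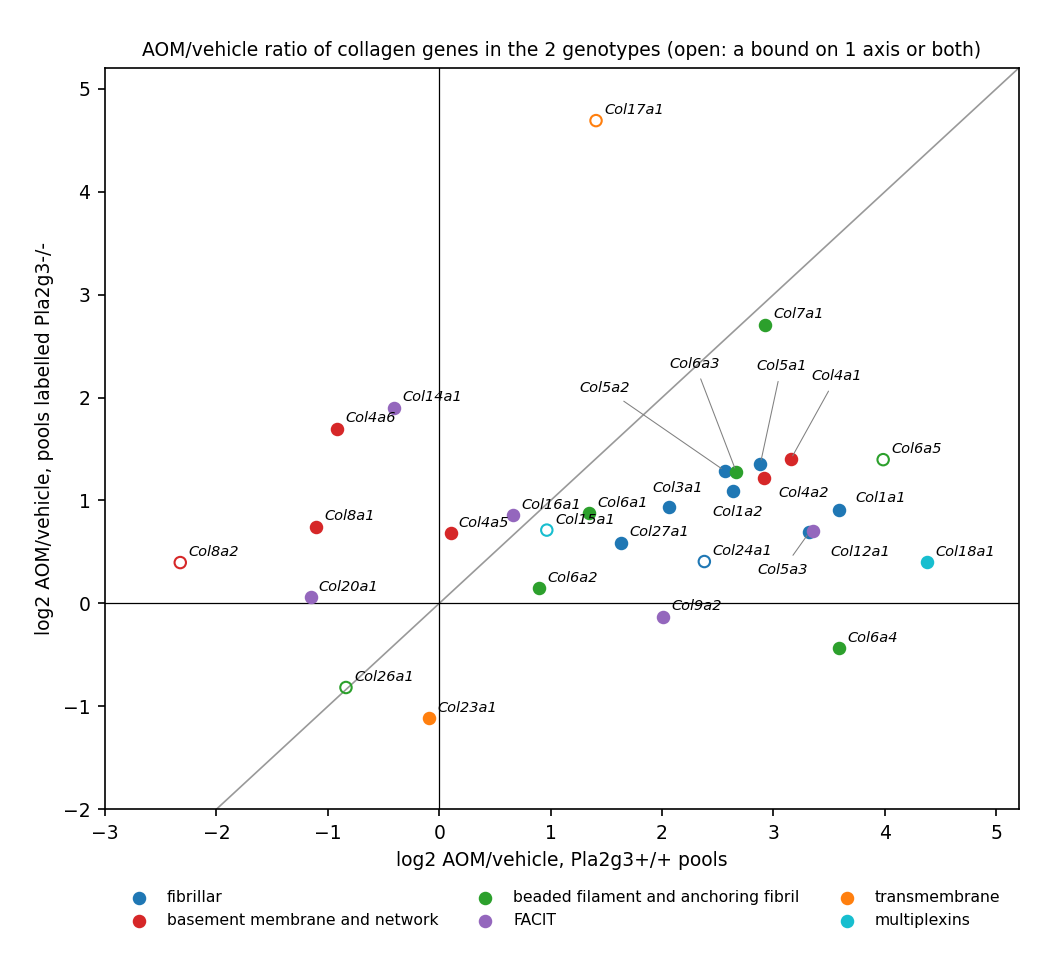
Log2 AOM/vehicle ratio of the collagen genes with a value in both genotypes, WT on the horizontal and KO on the vertical axis, colored by class, with the line of equality; open points have a bound on an axis. *Col7a1* lies near the line at 2.93 and 2.71, most fibrillar and type IV to VI chains lie below it on the right, and *Col4a6*, *Col8a1*, *Col8a2* and *Col14a1* lie left of 0 in WT and above 0 in KO, as does *Col20a1*, at 0.058 in KO. Without scaling between arrays *Col4a6* and *Col14a1* were above 0 in WT too.

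Among the fibrillar collagens, 8 of 10 (80%) were over 2-fold lower in KO than in WT after AOM, where 12.9% of all genes were. None was over 2-fold higher, where 15.1% were, and the class median was −1.27. *Col2a1*, kept through the WT AOM array only, could only come out lower. With normexp and quantile normalization *Col2a1*, *Col5a2*, *Col24a1* and *Col27a1* were no longer past 2-fold, and *Col3a1* was past it at −1.13. *Col1a1* (NM_007742), a chain of type I collagen, the main fiber of connective tissue, read 1.07, 1.48, 12.8 and 2.77. Its WT AOM signal was 12.0-fold that of WT vehicle, and the KO AOM signal was 4.63-fold below it (log2 −2.21). *Col1a2*, the other type I chain, read 5.75, 6.83, 35.9 and 14.5. Its ratios were 2.64 for AOM in WT, 1.09 for AOM in KO and −1.31 for KO/WT after AOM. Both type I chains were thus highest on the WT AOM array and second on the KO AOM array. *Col3a1*, which forms type III collagen and co-assembles with type I, read 4.88, 5.70, 20.4 and 10.9, and its KO/WT ratio after AOM was −0.90, short of 2-fold. Type V chains, which nucleate type I fibrils, gave −1.24 for *Col5a1*, −1.03 for *Col5a2* and −2.17 for *Col5a3* after AOM. *Col5a3* read 0.235, 0.323, 2.36 and 0.522, so that the WT AOM array stood apart and the KO AOM array was within 2-fold of KO vehicle. *Col5a2* was the closest to the threshold, and with scaling by the median of the array (−0.95), quantile normalization (−0.98) or normexp (−0.75) it was not past it. *Col24a1* and *Col27a1*, which encode later described fibrillar chains, were −1.52 and −1.19. *Col2a1*, the main collagen of cartilage, was above background on the WT AOM array only, at 0.0633, at least 4.32-fold above KO AOM. *Col11a2* was near background throughout, between 0.0179 and 0.0257.

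Promoter sequences from 250 bases before to 50 bases after the annotated start were taken from RefSeq (GRCm38.p6), which listed them for 30 of the 39 genes. They are shown for chains that moved together or apart. *Col4a1* (chr8:11312777-11313076, minus strand) and *Col4a2* (chr8:11312555-11312854, plus strand) lie head to head, and the 78 bases that both windows hold, chr8:11312777-11312854, are in capitals. For *Col1a2* (chr6:4505368-4505667, plus strand), *Col4a6* (chrX:141474027-141474326, minus strand), *Col10a1* (chr10:34389731-34390030, plus strand) and *Col17a1* (chr19:47691993-47692292, minus strand) the capitals mark matches on either strand to TATAAA (the TATA box), to CCAAT (the CCAAT box) or to GGGCGG (the GC box).
Col4a1: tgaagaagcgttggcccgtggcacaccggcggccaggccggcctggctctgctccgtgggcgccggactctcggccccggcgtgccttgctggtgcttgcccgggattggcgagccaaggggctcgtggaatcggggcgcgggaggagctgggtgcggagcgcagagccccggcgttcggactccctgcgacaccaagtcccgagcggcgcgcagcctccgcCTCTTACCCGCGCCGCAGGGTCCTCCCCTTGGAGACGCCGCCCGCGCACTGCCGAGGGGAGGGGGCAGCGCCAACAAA
Col4a2: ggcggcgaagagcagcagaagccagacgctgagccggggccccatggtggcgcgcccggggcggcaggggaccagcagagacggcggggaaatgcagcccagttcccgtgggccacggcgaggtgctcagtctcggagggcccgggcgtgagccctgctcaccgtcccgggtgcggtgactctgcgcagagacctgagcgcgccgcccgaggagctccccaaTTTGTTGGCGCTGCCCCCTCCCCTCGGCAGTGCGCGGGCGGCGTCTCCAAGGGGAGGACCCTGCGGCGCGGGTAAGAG
Col1a2: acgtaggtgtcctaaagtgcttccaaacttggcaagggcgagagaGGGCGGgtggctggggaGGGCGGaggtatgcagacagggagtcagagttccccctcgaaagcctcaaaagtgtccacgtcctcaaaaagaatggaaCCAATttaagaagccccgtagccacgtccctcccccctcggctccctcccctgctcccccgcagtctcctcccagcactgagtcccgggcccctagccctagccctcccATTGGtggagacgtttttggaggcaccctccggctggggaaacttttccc
Col4a6: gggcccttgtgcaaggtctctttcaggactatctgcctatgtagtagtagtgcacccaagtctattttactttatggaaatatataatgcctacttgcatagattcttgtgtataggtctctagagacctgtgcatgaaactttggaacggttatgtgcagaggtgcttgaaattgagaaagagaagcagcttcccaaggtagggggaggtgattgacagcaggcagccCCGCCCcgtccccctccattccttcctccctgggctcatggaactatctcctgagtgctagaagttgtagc
Col10a1: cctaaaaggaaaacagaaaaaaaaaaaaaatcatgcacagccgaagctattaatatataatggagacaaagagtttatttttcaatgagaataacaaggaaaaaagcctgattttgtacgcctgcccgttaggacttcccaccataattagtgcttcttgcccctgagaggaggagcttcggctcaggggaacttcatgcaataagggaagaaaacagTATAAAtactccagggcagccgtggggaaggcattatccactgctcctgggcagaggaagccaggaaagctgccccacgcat
Col17a1: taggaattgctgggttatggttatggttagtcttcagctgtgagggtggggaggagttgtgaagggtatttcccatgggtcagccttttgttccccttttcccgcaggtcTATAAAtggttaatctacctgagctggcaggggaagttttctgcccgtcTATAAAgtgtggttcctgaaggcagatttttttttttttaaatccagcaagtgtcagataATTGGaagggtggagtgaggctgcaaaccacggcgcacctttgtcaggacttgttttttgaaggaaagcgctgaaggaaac

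Over the 33 windows of these 30 genes (3 genes have several starts), GGGCGG was in 63.6%, against 35.7% of all 32851 windows listed. CCAAT was in 33.3% against 37.4%, and TATAAA in 12.1%, against 13.6%. The AP-1 motif TGANTCA was in 1 window, that of *Col6a1*, and the CArG box, the motif of serum response factor, in 1, that of *Col6a4*, against 7.81% and 1.63% of all windows. GGGCGG was in 10 of 16 windows of genes over 2-fold lower in KO after AOM and in 3 of 4 of those over 2-fold higher, CCAAT in 7 and 1, and TATAAA in 1 and 1. Such a match is a description of the letters and not a site of binding.

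Basement membrane and network collagens split. *Col4a1* and *Col4a2*, whose products form the type IV trimer present in all basement membranes, moved together: *Col4a1* read 0.569, 0.561, 5.06 and 1.48, and *Col4a2* read 0.580, 0.574, 4.37 and 1.34. Their KO/WT ratios were −0.02 and −0.01 with vehicle and −1.78 and −1.71 after AOM. AOM/vehicle was 8.90-fold and 7.53-fold in WT and 2.64-fold and 2.33-fold in KO. The genes whose shared promoter window is printed above in capitals thus differed from each other by less than the array error of 0.20 in both KO/WT comparisons. *Col4a5* and *Col4a6*, neighbors on the X chromosome, encode the chains of another type IV trimer that is found around smooth muscle. *Col4a6* read 0.0967, 0.123, 0.0514 and 0.398, with the WT AOM array lowest and the KO AOM array highest, a 7.76-fold difference. Its second probe read 0.134, 0.118, 0.0570 and 0.0866, with a KO/WT ratio of 0.60 after AOM against 2.96 for the brightest probe, and an AOM/vehicle ratio in KO of −0.44 against 1.70. Both probes were lowest on the WT AOM array, and the high KO AOM value was seen by 1 of the 2. *Col4a5* read 0.161, 0.188, 0.172 and 0.301, within 2-fold in every comparison.

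The remaining network collagens were dim. *Col8a1*, a short-chain collagen of vessel walls and of Descemet's membrane in the eye, read 0.101, 0.0918, 0.0469 and 0.154 and was 3.29-fold higher in KO than in WT after AOM. *Col8a2*, the partner chain, read 0.0629, 0.0738, 0.00414 and 0.0972, where the WT AOM value was not well above background, and was at least 7.74-fold higher. Its second probe gave −0.11 on the log2 scale in that comparison, so its probes did not show the same change. With normexp the ratios of *Col8a1* and *Col8a2* were 0.82 and 0.79. *Col10a1*, known as the collagen of hypertrophic cartilage, had signals of 0.00342, 0.00469, 0.264 and 0.00300, above background on the WT AOM array only, where it was at least 15.9-fold above WT vehicle and at least 18.0-fold above KO AOM. *Col4a3* was above background on the KO AOM array only, at 0.0604. The 8 cartilage markers, given beside *Col10a1* and *Col2a1*, summed to 0.294, 0.341, 0.244 and 0.264, and *Matn1*, *Matn3* and *Ucma* were not above background on any array. *Snorc*, another of the 8, was above background on the WT AOM array only, at 0.0560.

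In type VI collagen, which links cells to the surrounding fibers, the chains did not move alike. *Col6a3* read 1.02, 1.003, 6.45 and 2.43, with a KO/WT ratio after AOM of −1.41. *Col6a1* read 2.60, 2.95, 6.61 and 5.41 and *Col6a2* read 0.534, 0.517, 0.992 and 0.573, with ratios of −0.29 and −0.79. These 3 genes encode the chains of 1 trimer, and *Col6a3* was past 2-fold while the other two were not. The second probe of *Col6a2* gave 0.02 after AOM. *Col6a4* and *Col6a5*, neighbors on chromosome 9 that encode alternative chains, had low signals outside the WT AOM pool. *Col6a4* read 0.0321, 0.0290, 0.385 and 0.0215, a KO/WT ratio of −4.16 after AOM, and *Col6a5* read 0.263 with WT AOM and 0.0599 with KO AOM and was not above background in the vehicle pools. Its probe spans 105765145 to 105766504 on chromosome 9 of mm9, more than its own 60 bases, and so bridges a gap in the genome. *Col6a6*, the next gene in that cluster, was above background with WT vehicle only, at 0.0322.

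*Col7a1*, the anchoring fibril collagen that ties the epithelial basement membrane to the stroma, was raised after AOM in both pools. It read 0.192, 0.2004, 1.47 and 1.31, 7.61-fold higher in WT and 6.54-fold higher in KO. The KO/WT ratio after AOM was −0.16, less than the array error of 0.20. *Col26a1* was dim on all arrays, between 0.0104 and 0.0331.

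FACIT collagens, which lie on fibrils, held genes at both ends. *Col12a1*, often found on dense type I fibrils, read 0.170, 0.187, 1.74 and 0.305, and was 5.71-fold lower in KO than in WT after AOM. *Col14a1*, the related chain once named undulin, went the other way and read 0.377, 0.432, 0.285 and 1.62, with the KO AOM array highest and a 5.67-fold difference. Its second probe read 0.0547, 0.0618, 0.0395 and 0.0883, in the same order of arrays, with a KO/WT ratio of 1.16 after AOM. *Col9a2*, a chain of the type IX collagen of cartilage, read 0.115, 0.112, 0.462 and 0.102, a ratio of −2.18, and *Col9a1* and *Col22a1*, a collagen of tissue junctions, were above background on the WT AOM array only, at 0.0412 and 0.148. *Col16a1* was within 2-fold in all 4 comparisons, reading 2.16, 2.17, 3.43 and 3.95. *Col20a1* read 0.172, 0.132, 0.0773 and 0.138, lowest in the WT AOM pool, and its second probe gave 0.97 for KO/WT after AOM, beside 0.83 for the first.

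Among transmembrane collagens, *Col17a1* encodes the collagen of hemidesmosomes, which anchor basal cells of stratified epithelium. It was not above background with vehicle, read 0.0440 with WT AOM and 0.588 with KO AOM, and was 13.4-fold higher in the latter. AOM/vehicle was at least 2.65-fold in WT and at least 25.8-fold in KO. On the same array *Krt5*, a keratin of basal squamous cells, read 15.3, against 0.0561, 0.0515 and 0.0266 on the others. In the KO/WT comparison after AOM, 7 of the 8 squamous markers with a ratio were above 0, where 8920 of 17194 genes were. The median of the 8 was 0.58, against 0.03 for all genes. *Krt5* was over 2-fold higher and 6 were within 2-fold. *Krt4*, above background on the WT AOM array only, was at least 7.33-fold lower. *Krt14* read 0.112, 0.0686, 1.55 and 2.49. *Trp63*, the regulator of basal cells, read 3.86, 3.49, 3.53 and 3.99, within 2-fold in every comparison. For AOM/vehicle in KO, 4 of 8 markers with a ratio (50%) were over 2-fold higher, where 9.65% of all genes were. There 1 (12.5%) was over 2-fold lower, where 15.1% were. In WT, 3 of 9 were higher and 3 lower, where 15.1% and 22.4% of all genes were. *Krt14* was 36.4-fold higher after AOM in KO and 13.8-fold higher in WT. The 11 listed markers summed to 6.47, 5.80, 6.95 and 24.3, of which *Krt5* alone made up 15.3 on the KO AOM array, and *Krt1* and *Ivl* were not above background on any array. The part of squamous tissue in the *Col17a1* value was not tested. *Col23a1*, another transmembrane chain, read 0.136, 0.139, 0.127 and 0.0643, lowest with KO AOM. Its ratio was −0.99 for KO/WT after AOM by that probe, −1.18 by the second and −0.26 by the third. For AOM/vehicle in KO these probes gave −1.11, −1.21 and 0.01.

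Of the multiplexins, basement membrane collagens whose tail is released as an angiogenesis inhibitor, *Col18a1* (NM_001109991; chromosome 10 of mm9, 76514926 to 76514985, minus strand) read 0.660, 0.932, 13.8 and 1.23. The WT AOM array was thus at least 10 times the others, 20.8-fold above WT vehicle and 11.2-fold above KO AOM. AOM/vehicle was 4.38 on the log2 scale in WT and 0.40 in KO. Its second probe read 0.553, 0.789, 10.8 and 0.985, with a KO/WT ratio of −3.45 after AOM beside −3.48 for the first. *Col15a1*, the related chain, was near background, between 0.0151 and 0.0373. Of the collagen genes with at least 2 probes that gave a KO/WT ratio after AOM, 8 of 11 had all of them in 1 direction, the exceptions being *Col6a2*, *Col8a2* and *Col15a1*.

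The machinery of collagen synthesis was measured by 32 genes for hydroxylases, chaperones, propeptidases and lysyl oxidases. In the KO/WT comparison after AOM, 3 of 31 with a ratio (9.68%) were past 2-fold upward, where 15.1% of all genes were, and 9 (29.0%) downward, where 12.9% were, with a median of −0.32. The 9 include *Loxl4*, which was above background on the WT AOM array only and could only come out lower. In WT, 11 of 29 (37.9%) were over 2-fold higher after AOM, where 15.1% of all genes were, and 3 (10.3%) lower, where 22.4% were. *Loxl2*, a crosslinking lysyl oxidase, read 0.675, 0.716, 3.51 and 0.956, highest on the WT AOM array, with a KO/WT ratio of −1.88. *Colgalt1*, which glycosylates collagen, read 1.26, 0.788, 3.64 and 0.912. *Lox* was not above background with vehicle and read 0.224 with WT AOM and 0.0639 with KO AOM, at least 3.70 on the log2 scale above WT vehicle. *Pcolce2*, an enhancer of procollagen trimming, was higher in KO after AOM by 2.52. *Serpinh1*, the collagen chaperone HSP47, was within 2-fold in every comparison (KO/WT −0.84 after AOM), and was named for its role and not by the rule for this list.

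Fibril-binding matrix proteins went both ways, with 7 of 15 (46.7%) past 2-fold upward and 4 (26.7%) downward in KO after AOM. The shares of all genes in this comparison, for this and the following lists, were 15.1% higher and 12.9% lower. *Tnxb*, tenascin-X, which spaces fibrils, read 0.531, 0.588, 0.113 and 3.22, and *Ogn*, the small proteoglycan osteoglycin, read 5.27, 5.64, 0.810 and 7.52; both were lowest in the WT AOM pool. *Thbs1*, thrombospondin 1, read 0.493, 0.406, 4.39 and 0.857 and *Tnc*, tenascin-C, 0.0884, 0.0983, 0.455 and 0.153; both were highest there. *Fn1*, fibronectin, was higher after AOM by 3.24 in WT and 2.37 in KO.

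Of the collagen-cleaving proteases, 6 of 9 (66.7%) were over 2-fold lower in KO after AOM, where 12.9% of all genes were, and 1 (11.1%) was higher, near the 15.1% of all genes. The 6 include *Mmp8* and *Mmp9*, which were above background on the WT AOM array only and could only come out lower. *Mmp13*, a collagenase, read 0.0888, 0.0775, 9.49 and 0.0534, and *Mmp9*, a gelatinase, was above background on the WT AOM array only, at 1.18. Both were thus high in 1 of the 4 pools. *Fap*, a fibroblast surface protease, went the other way, at 0.980, 1.04, 0.266 and 0.726. Among collagen receptors 2 of 10 were over 2-fold higher in KO after AOM and 3 lower, where 15.1% and 12.9% of all genes were. *Ddr2*, a receptor for fibrillar collagen, had a ratio of 1.93, *Itga2*, the integrin chain that binds type I collagen, −2.10, and *Mrc2*, which takes collagen up into cells, −1.37. For TGF-beta ligands and fibrosis regulators 1 of 14 (7.14%) was higher, where 15.1% of all genes were, and 6 (42.9%) were lower, where 12.9% were. *Tgfb1* read 0.123, 0.124, 0.3502 and 0.0870, and *Tgfb3* read 0.976, 1.07, 0.365 and 0.919. *Tgfb1* was highest and *Tgfb3* was lowest on the WT AOM array.

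**Figure D5:**
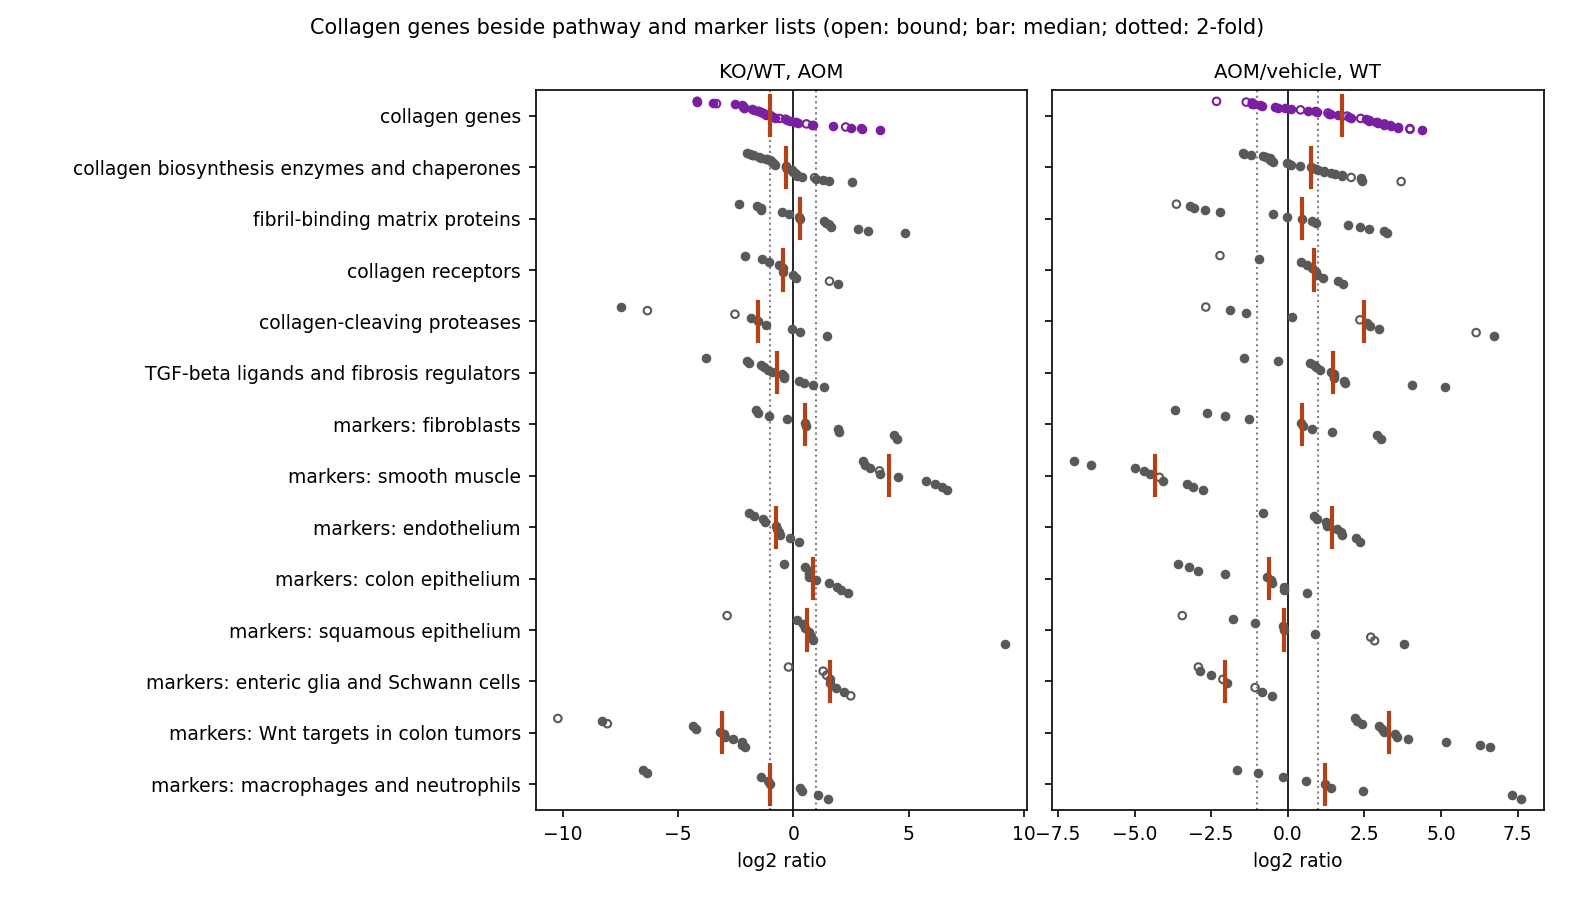
Log2 ratios of collagen genes, of lists of the collagen pathway and of cell type markers (rows), KO/WT after AOM on the left and AOM/vehicle in WT on the right, with 1 point per gene, open points as bounds, a bar at the median of each list and dotted lines at 2-fold. The collagen median is −1.01 on the left and 1.78 on the right, between those of smooth muscle (4.15 and −4.34) and Wnt targets (−3.10 and 3.32).

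Cell types that make collagen did not move as 1. After AOM, 4 of 10 fibroblast markers were over 2-fold higher in KO, where 15.1% of all genes were, and 3 were over 2-fold lower, where 12.9% were. *Pdgfra* and *Pdgfrb*, receptors on fibroblasts and pericytes, had ratios of −1.55 and −1.61, whereas *Pi16* and *Mfap5*, genes of adventitial fibroblasts, had 4.34 and 4.49. The summed level of the list was 21.2, 24.6, 37.6 and 36.8, and all 10 genes were above background on every array. Of the endothelial markers, 4 of 10 were over 2-fold lower in KO, with sums of 7.03, 7.57, 9.48 and 6.16. *Kdr* alone made up 5.13, 5.29, 2.91 and 2.64 of these sums. For AOM/vehicle in WT, 7 of the 10 were over 2-fold higher, where 15.1% of all genes were, and none was over 2-fold lower, where 22.4% were. In KO/WT after AOM, enteric glia and Schwann cell markers were over 2-fold higher in KO in 7 of 8, and the list summed to 1.82, 2.05, 0.339 and 1.24. Of the adipocyte markers with a ratio, 5 of 6 were over 2-fold higher in KO, with sums of 18.7, 38.9, 2.29 and 5.60. Macrophage and neutrophil markers summed to 80.4, 77.3, 112 and 81.2. In KO/WT after AOM, 5 of 9 were over 2-fold lower and 2, *Itgam* and *Ly6g*, over 2-fold higher. The largest changes were those of *S100a8* and *S100a9*, 80.5-fold and 92.4-fold lower. *Csf3r*, within 2-fold in that comparison, alone made up 44.4 to 53.8 of the sum on every array. *S100a9* made up 35.7 of the sum with WT AOM and 0.387 with KO AOM. Acinar markers summed to 5.00 with WT AOM and 0.307 with KO AOM, but *Pnliprp1* alone made up 4.35 of the former and 8 of the 12 were not above background there. Colon epithelium markers summed to 740, 793, 378 and 635. The part of any of these cell types in the collagen ratios was not tested.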

How the data were processed

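Colon RNA pools of 4 groups (27.7 ng each) were labeled with Cy3 and hybridized to 1 array each on the same slide. Groups were taken from the sample labels. Per the file headers, the authors deposited the spot intensity of Agilent Feature Extraction 11.5.1.1, corrected for background and spatial trend within each array, with coordinates on mm9 and no scaling between arrays. The other deposited table holds, as checked against each array, the ratio of that intensity to the array's 75th percentile. The flags for signals well above background were used as given.

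Control spots and outlier spots were left out, log2 signals of replicate spots were averaged, and the 75th percentile of the array was subtracted. A RefSeq table gave names, by accession and then by symbol, to 31367 of 39423 probes, and the brightest probe by mean log2 signal stood for a gene. No mm9 gene models were used here, so the exon of a probe is not given. The threshold was 2-fold, the size at which the study marks genes in its legends, and no test was run because each group had 1 array, whose number limits the precision. The calculation of ratios and bounds was tested on simulated data. Alternatives were other scalings, quantile normalization, normexp with an offset of 50 (limma 3.58.1, R 4.3.3), filters, other probes, the deposited table and thresholds of 1.5-fold and 4-fold. Other calculations used Python 3.11.15, pandas 2.3.3, numpy 2.4.6 and matplotlib 3.10.9.

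All collagen genes could be named, with *Pla2g3*, and of each other list the genes with the largest changes past 2-fold after AOM and the brightest markers. The members and all lists were chosen with earlier results of these data known.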

Additional observations from a re-analysis of the deposited data

Results flagged for a closer look

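For 7 collagen genes the AOM/vehicle log2 ratio had opposite signs in the genotypes, with at least 1 of the ratios past 2-fold and more than 2-fold between them. In 5 of them the WT ratio was below 0 and the KO ratio above 0. *Col4a6* had −0.91 in WT and 1.70 in KO, *Col8a1* −1.11 and 0.75, *Col8a2* −2.32 (a bound) and 0.40, *Col14a1* −0.40 and 1.90, and *Col20a1* −1.16 and 0.058. In the other two the WT ratio was above 0: *Col6a4* had 3.59 in WT and −0.43 in KO, and *Col9a2* 2.01 and −0.13. The difference between the genotypes was not tested, because each ratio rests on 1 pair of arrays. This ratio existed for 38 collagen genes in WT and for 31 in KO. How many of all genes meet the same rule was not counted, so whether 7 is more than their share is not known. By their second probes, *Col4a6* had −1.23 and −0.44, *Col8a2* −0.10 in WT and no value in KO, *Col14a1* −0.47 and 0.51, and *Col20a1* −1.45 and −0.09. The KO ratios of *Col20a1* and *Col9a2* lie within the array error of 0.22 and 0.23. Without scaling between arrays the signs no longer opposed for 4 of the genes, since the WT ratios of *Col4a6* and *Col14a1* became 0.11 and 0.62 and the KO ratios of *Col6a4* and *Col9a2* became 0.42 and 0.72. The WT ratio of *Col8a1* was −0.09 without scaling and −0.49 with normexp, and that of *Col8a2* was −0.47 with normexp.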

How the results depend on the processing

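With 1 array per group no array could be left out, and no value has an error between mice. No paired analysis was possible because each group has 1 array and no test was run. Of 1167 values of single collagen genes under the alternatives, 1052 kept their sign and their side of 2-fold, 31 turned sign within 2-fold, 40 were no longer past it, 41 passed it and 3 turned sign with the old or new value past it. Of the 31, 15 were in the KO/WT comparison with vehicle, such as *Col6a2* (0.71 by its second probe, beside −0.05) and *Col4a6* (−0.18, beside 0.34), and 9 came from leaving out the scaling. The 3 were *Col8a2* KO/WT after AOM (−0.11 by its second probe), *Col4a6* AOM/vehicle in KO (−0.44 by its second probe) and *Col15a1* KO/WT after AOM (−1.01 by the mean of all probes). The median KO/WT ratio after AOM, −1.01, was −0.93 with median scaling, −0.52 with normexp and quantile normalization, −0.86 with no filter and no bound, −0.94 with the mean over probes and −0.90 with the second brightest probe. The number of genes lower in KO after AOM, 19, was 10 at 4-fold and 15 to 23 otherwise, and the number higher, 6, was 3 with normexp. With vehicle, 2 genes were lower with no filter and no bound. For AOM/vehicle in WT the median was 0.81 with normexp, and the 5 lower genes became 1 without scaling, 0 with normexp, 2 with genes above background on both arrays, 3 with the second probe and 1 at 4-fold. For AOM/vehicle in KO the median was 1.65 without scaling, and the 12 higher genes became 25 without scaling, 22 at 1.5-fold and 2 at 4-fold. The 1 lower gene became 0 without scaling, with normexp, with the mean over probes and at 4-fold, 3 with no filter and no bound and 2 at 1.5-fold. The cause of these shifts was not tested. The deposited table gave the same counts. Low signals limit the genes above background on 1 array, whose changes are bounds.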

Other observations

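Neighboring collagen genes can be read side by side. RefSeq lists 8 pairs of neighbors among the collagen genes, of which *Col3a1* and *Col5a2* on chromosome 1 had KO/WT ratios of −0.90 and −1.03 after AOM and *Col4a1* and *Col4a2* on chromosome 8 had −1.78 and −1.71. *Col6a2* and *Col6a1* on chromosome 10 had −0.79 and −0.29, and *Col6a5* and *Col6a4* on chromosome 9 had −2.13 and −4.16. On the X chromosome, *Col4a6* and *Col4a5* had 2.96 and 0.80, both above 0. *Col9a1* and *Col19a1*, also neighbors, gave a bound of −1.49 and no value, *Col4a4* and *Col4a3* gave bounds of 0.56 and 2.27, and *Col6a6*, beside *Col6a5*, gave no value.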
